A study of Mus musculus with 6 samples.

Results

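Kainate receptors are the class of ionotropic glutamate receptors named after the agonist kainate, and this account follows the transcripts of their subunits and of the NETO proteins that bind them. The members were the rows of the deposited count table whose gene symbol was Grik1, Grik2, Grik3, Grik4, Grik5, Neto1 or Neto2. All 7 were found among 38293 rows, and all 7 were among the 14642 genes that passed a filter on low counts. RNA-seq was made from primary cortical neurons of embryonic day 16 Swiss-Webster mice, genotype WT, harvested at day 13 in vitro. In the NMDA group (3 libraries) the cultures received 50 µM NMDA in the bath for 10 minutes and then recovered in drug-free medium for 50 minutes. In the control group (3 libraries) the label for treatment is None. Etoposide appears in the growth protocol of every sample, and none of the 6 carries it as a treatment. How many embryos gave a culture is not stated in the labels. Since the extract protocol counts 2 biological replicates and each group has 3 samples, some of the spread behind the p-values may be technical.

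A kainate receptor is a tetramer. The subunits GluK1, GluK2 and GluK3, encoded by Grik1, Grik2 and Grik3, can form channels without other subunits, whereas GluK4 and GluK5, encoded by Grik4 and Grik5, bind kainate with high affinity and need a GluK1, GluK2 or GluK3 partner to form a channel. Neto1 and Neto2 encode single-pass membrane proteins with CUB domains that attach to these receptors and alter their gating and their place in the membrane. In cortex kainate receptors act on both sides of the synapse, where they tune transmitter release and carry slow synaptic currents.

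The subunits share a pore loop, and its coding sequence shows how alike they are. In GluK1 and GluK2 a glutamine codon at the tip of this loop can be recoded to arginine by A-to-I editing of the RNA, which lowers calcium permeability; the gene counts used here sum edited and unedited transcripts. The lines below give 45 bases of the coding strand around that codon, in capitals, read from GENCODE M21 transcripts on GRCm38.
Grik1: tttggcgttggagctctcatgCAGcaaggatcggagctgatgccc
Grik2: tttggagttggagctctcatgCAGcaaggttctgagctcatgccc
Grik3: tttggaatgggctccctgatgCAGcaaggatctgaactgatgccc
Grik4: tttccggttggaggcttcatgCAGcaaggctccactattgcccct
Grik5: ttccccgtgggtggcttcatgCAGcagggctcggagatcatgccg
The codon is CAG in all 5 genes. It is codon 621 of Grik2, at chr10:49244329-49244331 on the minus strand in exon 12 of the transcript used, and codon 636 of Grik1, at chr16:87940542-87940544 on the minus strand in exon 13. Against Grik2, 41 of the 45 bases were identical in Grik1 and 36 in Grik3, but 28 in Grik4 and 31 in Grik5. In Grik1, Grik2 and Grik3 an exon junction lies 4 bases after the codon, and in Grik4 and Grik5 the whole stretch lies within 1 exon.

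The libraries held 15417234 to 18606264 counted reads in the NMDA group and 17860691 to 19183999 in the control group. Levels of one gene are given as CPM, counts scaled to library size and to TMM factors, which assume that most genes do not differ. The stimulus was visible in all 7 activity-induced genes used as a check, among them Fos (116 ± 24.5 CPM in NMDA libraries and 3.30 ± 0.573 CPM in control libraries; mean ± SD, n = 3 each). The neuronal markers were present, with Rbfox3 (108 to 137 CPM in NMDA libraries, 90.8 to 105 in control libraries), Map2 (1800 to 2380 and 2230 to 2880) and Snap25 (703 to 850 and 712 to 835). Tubb3 was at 648 to 711 CPM in NMDA and 510 to 608 CPM in control libraries, and Syt1 at 672 to 784 and 662 to 955. Every NMDA library lay above every control library in Rbfox3 and Tubb3, while the groups overlapped in Map2, Snap25 and Syt1. The cultures also held glia: the 10 astrocyte markers summed to 3980 to 5340 CPM in NMDA libraries and 3670 to 4090 CPM in control libraries. Microglial markers summed to 10.4 to 18.2 CPM in NMDA and 14.7 to 15.7 CPM in control libraries, with 3 of 11 tested. The 6 endothelial markers summed to 14.0 to 23.9 CPM in NMDA and 12.3 to 18.0 CPM in control libraries, with 2 tested. Among them Kdr had means of 15.8 CPM in NMDA and 12.8 CPM in control libraries, and Cldn5 was at 0 in every library. Replicate 1 of both groups stood apart in oligodendrocyte markers: Mbp was at 58.3, 15.6 and 16 CPM in NMDA replicates 1, 2 and 3 and at 65.9, 14.6 and 13.7 CPM in control replicates 1, 2 and 3.

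Grik2, the gene of the GluK2 subunit, was lower in NMDA libraries than in the control library of the same replicate number in all 3 pairs, and fell in the test made within pairs. It lies on the minus strand of GRCm38 at chr10:49094833-49788766 (ENSMUSG00000056073), a gene body of 694 kb. Its level was 69.7, 55 and 52.9 CPM in NMDA replicates 1, 2 and 3, against 85.0, 68.3 and 75.4 CPM in control replicates 1, 2 and 3. The groups overlapped, since NMDA replicate 1 stood above control replicate 2, while replicate 1 was the highest library of both groups. Means were 59.2 ± 9.16 CPM in NMDA and 76.2 ± 8.37 CPM in control libraries (SD, n = 3 each), a difference of -22.4% of the control mean. The log2 change was -0.37 ± 0.07 (SE) within pairs, with a 95% interval from -0.52 to -0.22 (edgeR quasi-likelihood test with the replicate number as a block, Benjamini-Hochberg adjusted p = 0.002). Without the block the log2 change was the same size, -0.37 ± 0.12, and did not pass (adjusted p = 0.25). Changes in pairs 1, 2 and 3 were -0.29, -0.31 and -0.51 on the log2 scale. Without both libraries of replicate 1, 2 or 3 the paired change was -0.40, -0.40 and -0.29 (edgeR adjusted p = 0.00029, 0.0079 and 0.036). Over all genes these fits called 2707, 1018 and 1463, against 2051 with all pairs. They have fewer libraries, so their p-values lean more on the variance shared across genes.

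The pairs rest on the replicate numbers, which the labels do not explain; libraries of the same number deviated together from their group means, as detailed in the account of the processing. Without the block, 0 of the 7 members passed at an adjusted p under 0.05 in edgeR, DESeq2 or limma-voom, beside 0.43%, 2.09% and 0.41% of all genes tested. Before adjustment, 2 of the 7, Grik2 and Neto1, had an edgeR p under 0.05, beside 13.7% of all genes. With the block, 1 of the 7 passed and was lower, beside 14.0% of all genes called in either direction and 8.35% called lower. A share of 1 in 7 near that background is not a result about the family. In DESeq2 with the block the same 1 member passed, beside 6.58% of all genes.

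**Figure D1:**
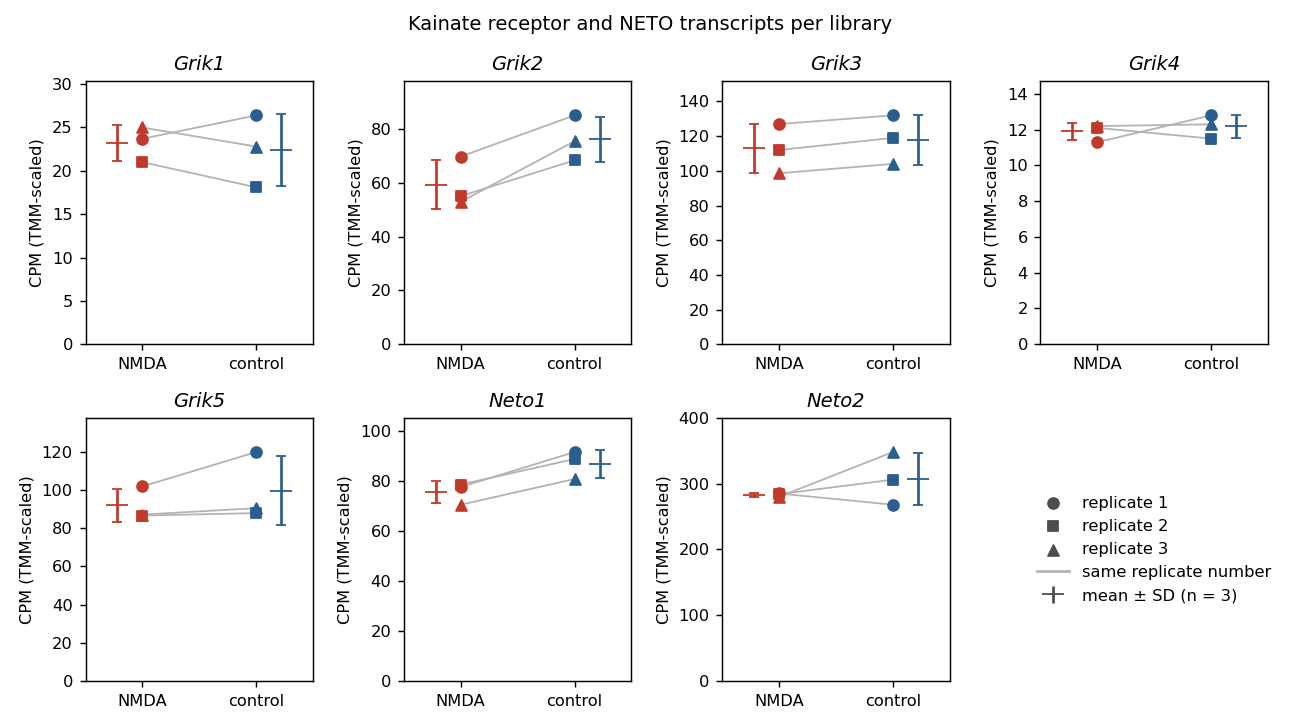
CPM of each member (y axes from 0) in the 3 NMDA and 3 control libraries, with lines joining libraries of the same replicate number and bars for the mean ± SD. The lines of Grik2, Grik3, Grik5 and Neto1 all run higher on the control side, and those of Grik1, Grik4 and Neto2 run in both directions.

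The size of the Grik2 change depended on whether GC content and exonic length were modelled. The longest Grik2 transcript has 37.94% GC, and in the paired fit the 940 tested genes with at most 40% GC had a median log2 change of -0.092, with 14.1% of them called lower. Over all genes tested the median was -0.004. With offsets for GC content and exonic length added to the paired fit, Grik2 was at -0.22 ± 0.07 (95% interval -0.36 to -0.08) and still passed (adjusted p = 0.033), beside 13.6% of all genes called. Astrocyte markers moved in the opposite direction: 10 of 10 had a fitted change above 0, and 7 of 10 rose within pairs, beside 5.65% of all genes called higher in that fit. Without the block 0 of the 10 passed in edgeR (adjusted p 0.29 to 0.74), with 2 at an unadjusted p under 0.05. Their median log2 change was 0.13, 0.35 and 0.34 in pairs 1, 2 and 3. Within pairs 3 of 11 progenitor and cycling markers also rose (Nes 0.37, Vim 0.34 and Sox2 0.22), as did 2 of 7 tested fibroblast and mural markers (Tagln 0.67 and Acta2 0.56). The progenitor and cycling list summed to 939 to 1670 CPM in NMDA and 857 to 1270 CPM in control libraries, and the fibroblast and mural list to 142 to 259 CPM in NMDA and 112 to 151 CPM in control libraries. Of 6 oligodendrocyte markers, 1 fell within pairs (Mog, -0.65), and the list summed to 80.9 to 204 CPM in NMDA and 70.9 to 229 CPM in control libraries. Without the block 0 members of these 3 lists passed in edgeR, with 1 at an unadjusted p under 0.05. The 10 excitatory neuron markers had medians of 0.23, -0.07 and -0.07 in the same pairs, and the 13 inhibitory neuron markers 0.06, 0.05 and 0.16. Within pairs 1 of the 10 excitatory markers rose (Neurod2, 0.27), as did 1 of the 13 inhibitory markers (Sst, 0.27), with 0 called lower. Neither Neurod2 nor Sst passed without the block in edgeR (adjusted p 0.33 and 0.34). The part of RNA from these other cells in the Grik2 result was not tested, and in bulk RNA fewer cells of a type and less RNA per cell cannot be told apart.

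The other subunits that can form channels alone did not pass in either fit. Grik1 (ENSMUSG00000022935, chr16:87895900-88290265, minus strand), a subunit known from interneurons, was at 23.7, 21 and 25 CPM in NMDA replicates 1, 2 and 3 and at 26.4, 18.1 and 22.8 CPM in control replicates 1, 2 and 3. It was lower in pair 1 and higher in pairs 2 and 3, and its groups overlapped. The paired log2 change was 0.06 with a 95% interval from -0.14 to 0.27 (edgeR adjusted p = 0.71). Grik3 (ENSMUSG00000001985, chr4:125490700-125714173, plus strand), whose GluK3 subunit needs unusually high glutamate to open, was at 127, 112 and 98.6 CPM in NMDA replicates and 132, 119 and 104 CPM in control replicates. Each NMDA library stood slightly below the control library of its number, by -0.06, -0.08 and -0.07 on the log2 scale, a step smaller than the gap between replicates. The paired interval for Grik3 ran from -0.22 to 0.08 (edgeR adjusted p = 0.55).

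The high-affinity subunits did not pass either. Grik5 (ENSMUSG00000003378, chr7:25009849-25072346, minus strand) was at 102, 86.7 and 87.2 CPM in NMDA replicates and 120, 88.0 and 90.6 CPM in control replicates. Replicate 1 was the highest library of both groups, and pair 1 had a log2 change of -0.24 against -0.02 and -0.05 in pairs 2 and 3. The paired interval ran from -0.26 to 0.05 (edgeR adjusted p = 0.36). Grik4 (ENSMUSG00000032017, chr9:42518135-42944493, minus strand) was the least counted member, with 169 to 229 reads in NMDA libraries and 207 to 236 reads in control libraries, so counting alone gives a relative error of up to 7.69%. Its level was 11.3, 12.1 and 12.2 CPM in NMDA replicates and 12.8, 11.5 and 12.3 CPM in control replicates, and the paired interval ran from -0.27 to 0.20 (edgeR adjusted p = 0.88).

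The NETO genes both had fitted changes below 0 and neither passed. Neto1 (ENSMUSG00000050321, on chromosome 18), which encodes the partner also found with NMDA receptors, was at 77.7, 78.7 and 70.6 CPM in NMDA replicates and 91.7, 88.9 and 80.9 CPM in control replicates. All 3 NMDA libraries lay below all 3 control libraries, as they did for 11.1% of all genes tested, and Neto1 was the 1 member of 7 with separate groups. Its paired log2 change was -0.20 ± 0.07 (95% interval -0.35 to -0.06, edgeR adjusted p = 0.056), and with GC and length offsets it was -0.12 (adjusted p = 0.26). An antisense gene overlaps 219 bases of its exons, 2.62% of their length, and whether counting used the strand is not stated in the labels. Neto2 (ENSMUSG00000036902, chr8:85636588-85700924, minus strand), the most counted member, was at 285, 284 and 280 CPM in NMDA replicates and 268, 306 and 348 CPM in control replicates. The 3 control libraries spread far more than the 3 NMDA libraries, with coefficients of variation of 0.931% in NMDA and 12.9% in control. Counting error at the lowest Neto2 count, 1.53%, exceeds the NMDA value, and the difference in spread was not tested. Pairs 1, 2 and 3 gave 0.09, -0.11 and -0.31, and the paired interval for Neto2 ran from -0.28 to 0.06 (edgeR adjusted p = 0.40).

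**Figure D2:**
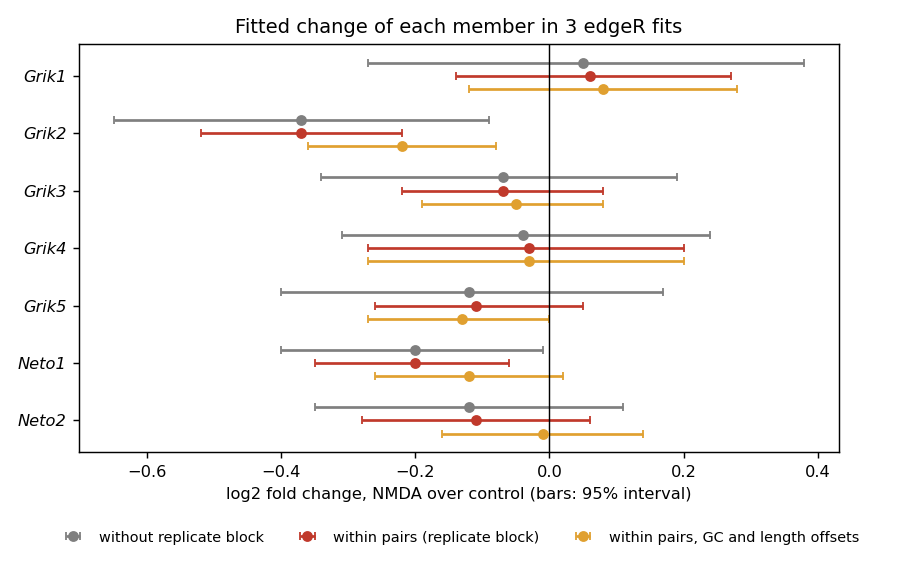
Fitted log2 fold change (x axis, NMDA over control) of each member with its 95% interval in 3 edgeR fits: without the replicate block, with it, and with it plus GC and length offsets. The Grik2 interval lies below 0 in all 3 fits, and the GC and length offsets move Grik2, Neto1 and Neto2 towards 0.

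Of the 7 members, 6 had a fitted change below 0 without the block, as did 50.9% of all genes tested. The median over the 7 was -0.12 without and -0.11 with the block, against -0.005 and -0.004 over all genes tested. Grik2, Grik3, Grik5 and Neto1 were lower in NMDA in all 3 pairs, as were 25.6% of all genes tested. The 3 members with the lowest GC content were Neto2 (36.49%), Grik2 (37.94%) and Neto1 (39.56%). Differences between the members' changes were not tested, so the Grik2 change is not shown to be larger than that of the others.

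Levels of different genes were compared per kb of exon. In NMDA libraries the order was Neto2 (46.2 ± 0.430 CPM per kb), Grik5 (17.8 ± 1.69), Grik3 (12.6 ± 1.59), Neto1 (9.06 ± 0.527), Grik2 (4.47 ± 0.692), Grik1 (3.46 ± 0.305) and Grik4 (1.99 ± 0.0804; SD, n = 3 for each). In control libraries the order was the same, with Neto2 at 50.2 ± 6.46, Grik5 at 19.3 ± 3.49, Grik3 at 13.2 ± 1.61, Neto1 at 10.4 ± 0.671, Grik2 at 5.76 ± 0.632, Grik1 at 3.33 ± 0.620 and Grik4 at 2.05 ± 0.108 CPM per kb. No pair of neighbours in this order had overlapping libraries in either group. The smallest ratios of neighbouring means were 1.29 for Grik2 over Grik1 in NMDA libraries (1.73 in control libraries) and 1.26 for Grik3 over Neto1 in control libraries (1.39 in NMDA libraries). The step between Grik2 and Grik1 rests on the length used: per kb of the longest transcript Grik2 was at 6.28 ± 0.972 and Grik1 at 6.36 ± 0.561 in NMDA libraries, against 8.09 ± 0.888 and 6.13 ± 1.14 in control libraries. The most abundant subunit transcript was Grik5, which encodes a subunit that needs a partner, and the NETO pair was led by Neto2.

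**Figure D3:**
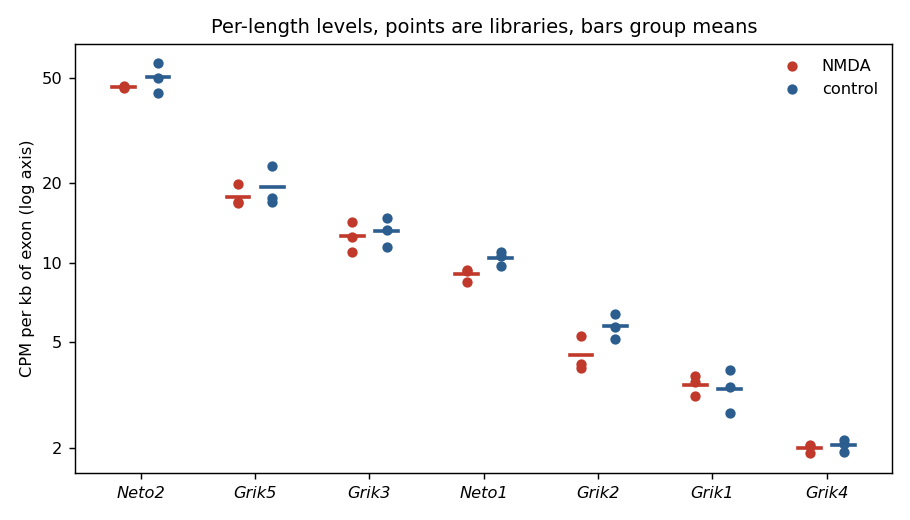
Level of each member in CPM per kb of exon (log axis), with a point for each library and a bar for each group mean, ordered by the control mean. Neto2 leads at 46.2 in NMDA and 50.2 in control libraries, and Grik4 is lowest at 1.99 and 2.05.

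The make-up of the receptor transcripts was described as shares of the summed per-length level of the 5 subunits. Grik2 held 11.8%, 10.8% and 10.6% of this sum in NMDA replicates 1, 2 and 3 and 12.7%, 12.9% and 14.2% in control replicates 1, 2 and 3. Every NMDA library lay below every control library in this share, which carries no test because it is a score over members. The share rests on the same Grik2 counts as the change above, and the CPM of Grik2 itself overlapped between groups. The shares were not adjusted for GC content, which is lowest in Grik2 (37.94%, against 47.85% to 61.68% in the other subunits). Like the levels above, the shares rest on the length used. Grik5 held 44.2 ± 0.709% in NMDA and 44.1 ± 1.85% in control libraries, and Grik3 held 31.1 ± 1.70% and 30.3 ± 2.42%. Grik4 and Grik5 together, the high-affinity subunits, held 49.2 ± 0.965% in NMDA and 48.8 ± 1.52% in control libraries. Of the summed NETO level, Neto1 held 16.7%, 16.9% and 15.6% in NMDA replicates and 20%, 17.5% and 14.6% in control replicates, with overlapping groups. Summed over the 5 subunits the level was 40.3 ± 3.78 CPM per kb in NMDA and 43.6 ± 6.0 CPM per kb in control libraries.

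The other ionotropic subunits were read from the same fits. Of 13 listed, 12 were tested, 1 fell without the block and 3 fell within pairs, with none higher in either fit. Without the block the 1 stands beside 0.43% of all genes called in either direction and 0.0546% called lower. The 3 within pairs are 25.0% of the 12, beside 8.35% of all genes called lower within pairs. These were Grin2b (log2 -0.75 ± 0.09 within pairs, edgeR adjusted p = 9e-06), Grin2a (-0.84 ± 0.14, adjusted p = 0.00081) and Gria4 (-0.31 ± 0.07, adjusted p = 0.0056), of which Grin2b also passed without the block (adjusted p = 0.016). Grin2b and Grin2a encode the glutamate-binding GluN2B and GluN2A subunits of NMDA receptors, and Gria4 the GluA4 subunit of AMPA receptors. Grin2b was at 37.2 ± 1.87 CPM in NMDA and 62.7 ± 7.89 CPM in control libraries, and Gria4 at 98.8 ± 7.17 and 122 ± 6.32 CPM. The median of the 12 was -0.12 within pairs, close to that of the kainate receptor and NETO genes.

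**Figure D4:**
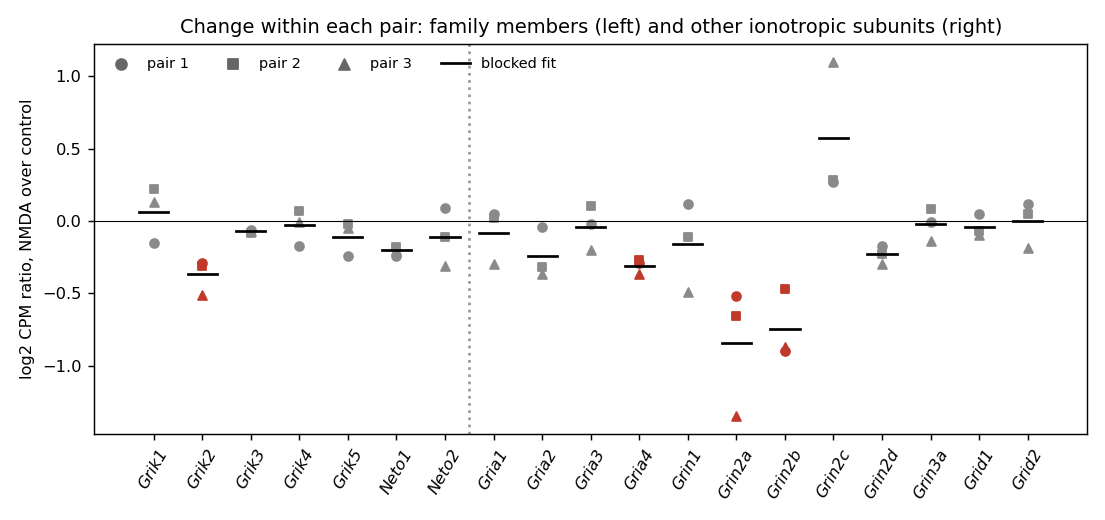
Log2 CPM ratio of NMDA over control in each of the 3 pairs, with a black bar for the paired edgeR fit, for the 7 members (left of the dotted line) and 12 other ionotropic subunits. Genes in red passed at an adjusted p under 0.05 in the paired fit: Grik2 on the left, and Gria4, Grin2a and Grin2b on the right.

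Genes for proteins that bind, move or modify kainate receptors were read in the same way. Of 24 listed, 23 were tested, 0 passed without the block in edgeR (1 at an unadjusted p under 0.05, and 1 called by DESeq2), and 1 fell within pairs. That is 4.35% of the 23, below the 8.35% of all genes called lower within pairs, and is not a result about this list. The gene was Dlg2, which encodes the PSD-93 scaffold, at 260 ± 28.7 CPM in NMDA and 360 ± 22.8 CPM in control libraries (log2 -0.47 ± 0.08 within pairs, edgeR adjusted p = 0.00089). The next smallest p in the paired fit belonged to Prkca, a protein kinase C (-0.22, adjusted p = 0.063), Dpysl2, the CRMP2 protein (0.20, adjusted p = 0.089), and C1ql3, a secreted C1q-like synaptic protein (0.19, adjusted p = 0.10). The median of the 23 was 0.04 within pairs.

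The 3 adenosine deaminase genes of RNA editing all had fitted changes below 0, as did 50.9% of all genes tested. Of the 3, 1 fell within pairs, beside 8.35% of all genes called lower. Adarb2, which encodes the brain-enriched ADAR3 protein without known deaminase activity, fell within pairs (log2 -0.28 ± 0.07, edgeR adjusted p = 0.016), at 48.7 ± 6.61 CPM in NMDA and 58.9 ± 6.23 CPM in control libraries. It did not pass without the block (adjusted p = 0.35), in DESeq2 with the block, with GC and length offsets (-0.20, adjusted p = 0.061), or within pairs without replicate 2 or 3. Adarb1, which encodes ADAR2, the main editor of the codon shown above, was at 91.1 ± 10.4 CPM in NMDA and 106 ± 7.03 CPM in control libraries. Its paired log2 change was -0.22 (edgeR adjusted p = 0.058), and it is named here after its values were seen. Adar was at -0.08 (adjusted p = 0.50).

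Among 12711 other tested genes whose mean log2 CPM reached 1, those whose pattern over the 6 libraries was most like that of Grik2 were Tanc2, Unc13a, Mfsd11, Slc4a8 and Zfp784. Likeness was the root-mean-square difference of log2 CPM, each gene centred on its own mean, and it ran from 0.029 for Tanc2 to 0.043 for Zfp784. Tanc2, a postsynaptic scaffold gene, was at 179 CPM in NMDA and 225 CPM in control libraries, with log2 changes of -0.27, -0.29 and -0.45 in pairs 1, 2 and 3. Unc13a, which encodes the vesicle priming protein Munc13-1, had -0.25, -0.33 and -0.50. Within the family Grik5 was nearest to Grik2, at 0.157, followed by Neto1 at 0.164, and Grik1 was farthest at 0.267. Grik5 ranked only 1226 and Neto1 1393 among the 12711 genes. The root-mean-square of Grik2 about its own mean was 0.241, so Grik1 and Neto2 (0.248) were farther from Grik2 than an unvarying gene would be. These distances describe 6 libraries and carry no test.

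**Figure D5:**
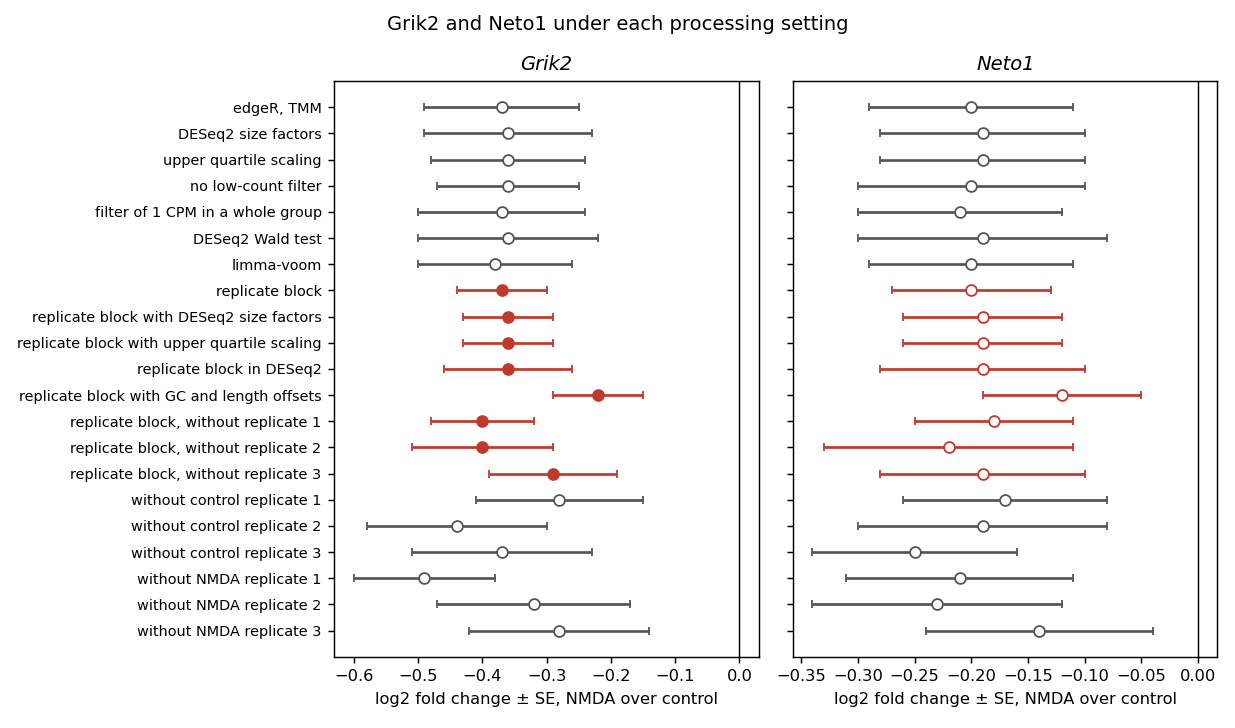
Log2 fold change ± SE (x axis, NMDA over control) of Grik2 and Neto1 under the main fit and 20 alternatives, with filled points where the adjusted p was under 0.05 and red for fits with the replicate block. All 21 values lie below 0 for both genes, and filled points appear for Grik2 in the 8 fits with the block and nowhere for Neto1.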

How the data were processed

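RNA was measured in 6 libraries, 3 per group. The authors deposited one table of raw read counts by Ensembl gene; per the submitters' processing notes the tools were HTSeq, TopHat and Trimmomatic on GRCm38.p6 (mm10). Not given in the sources used here: tool versions, annotation release, strand setting. Per the labels' protocols, poly(A) RNA was made into stranded libraries. Differential expression was tested on the counts with edgeR 4.0.16 in R 4.3.3: filterByExpr defaults (count of 10, total of 15), TMM scaling, robust quasi-likelihood F tests on group, and Benjamini-Hochberg adjustment over 14642 genes at 0.05. Rows with a blank symbol (2153, with 0.219% to 0.246% of counts) stayed in. Positions, lengths and GC content of the longest transcript came from GENCODE M21 on GRCm38, and covered 99.0% of tested genes. Promoter windows came from RefSeq on GRCm38.p6.

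Pairing was judged from deviations of log2 CPM from group means. Their correlation was 0.539, 0.384 and 0.487 for numbers 1, 2 and 3, and -0.407 to -0.0231 across numbers. Deviations within a group cancel out, so positive same-number values push those across numbers to be negative. The negative values are therefore not further evidence of pairing. Each same-number value passed 0.1, and the libraries were treated as paired, on the data and not the labels. The fit with the replicate block has 2 residual degrees of freedom, against 4 without it. Blocked fits that leave out a replicate number have fewer still. No 2 libraries of a group were copies (chi-square per degree of freedom 7.76 to 54.3).

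Alternatives were DESeq2 1.42.0, limma-voom (limma 3.58.1), other scalings and filters, the block, GC and length offsets (mgcv 1.9.3) and each library left out. The members and lists were chosen with earlier results of these data known. Named genes were the members, receptor and editing genes past the threshold in either fit, the 4 binding genes with the smallest paired p, and the 5 genes most like Grik2. Counting error, taken here without molecular identifiers, is only part of the spread. The common coefficient of variation beyond counting was 13% without the block and 7.06% with it in edgeR. The scripts were tested on simulated counts. Figures were drawn with matplotlib 3.10.9.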

Additional observations from a re-analysis of the deposited data

How the results depend on the processing

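The replicate block decided the call of Grik2, which passed in all 8 fits with the block (log2 -0.40 to -0.22) and in none of the 13 without it (-0.49 to -0.28). These fits share libraries and are not independent. Neto1 passed in none of the 21. Over all genes 63 were called in the main fit, 20 to 146 with 1 library left out, 260 without a low-count filter, 306 by DESeq2, and with the replicate block 2051, or 2077 and 2047 with DESeq2 size factors and upper quartile scaling, 963 in DESeq2, 1976 with GC and length offsets, and 2707, 1018 and 1463 without the libraries of replicate 1, 2 or 3. Members called were 0 without the block under every setting, and 1 in each of the 8 blocked fits. Other ionotropic subunits called were 1 in the main fit, 0 to 2 with 1 library left out, 2 without a filter or by DESeq2, and 3 with the block, except 5 and 2 without replicates 1 and 2. Binding genes called were 1 without a filter, by DESeq2 and with the block, and 2 with the block without replicate 1. Editing genes called were 1 with the block under the 3 scalings and 2 without replicate 1. From the main fit to the full blocked fit, only Grik2, Grin2a, Gria4, Dlg2 and Adarb2 changed call among receptor, binding and editing genes.

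Members near 0 changed sign. Grik1 was at -0.01 with the block without replicate 2 and ranged from -0.08 to 0.19 with 1 library left out, Grik3 from -0.16 to 0.03, Grik4 from -0.08 to 0.01 (0.04 with the block without replicate 1) and Grik5 from -0.20 to 0.04. Neto2 was at 0.0015 with the block without replicate 3. The cause was not tested. Depth limits Grik4 most, with 169 to 229 reads in NMDA libraries and 207 to 236 in control libraries.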

Other observations

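Gene length is a property that the choice of members did not use. Grik2 (694 kb), Grik4 (426 kb) and Grik1 (394 kb) are among 528 tested genes with bodies over 300 kb. These 528 had a median paired log2 change of -0.042, with 11.6% called lower and 3.41% called higher, against 0.017, 6.97% and 6.87% for 6344 genes of up to 20 kb. The 300 kb bound was chosen after the values were seen. In pairs 1, 2 and 3 the medians of the long genes were 0.018, -0.051 and -0.120, so pair 1 did not share the direction. With offsets for GC content and exonic length the median of the long genes was -0.001. Those offsets do not model the length of the gene body.

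Promoters of 5 members, in 6 windows from 250 bases before to 50 bases after a start site, were searched on both strands for the CRE TGACGTCA, the AP-1 motif TGANTCA and the EGR motif GCGTGGGCG. None of the 6 windows held any of them; among all 32851 windows of the same length 1.79%, 7.81% and 0.612% did.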
